A study of Mus musculus with 12 samples.

Results

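The mitochondrial ribosomal proteins were followed in MTΔECad cells, a mesenchymal breast cancer cell line of the mouse, while they were turned into fat cells. Members were all protein-coding genes in the count table whose mouse symbol is Mrpl or Mrps followed by a digit and which had 10 or more counts in 2 or more libraries. This kept 77 of 78 such genes, out of 17090 genes in the table. Mrpl23 was left out, with 1 to 7 counts per library, and Mrps36 lay just inside the limit, with 1 to 11 counts per library. Mrps36 did not pass the filter on low counts, so 76 members were tested. Of the 77, 50 belong to the large subunit and 26 to the small subunit, and Mrps36, whose product is a part of the 2-oxoglutarate dehydrogenase complex, was put in neither.

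RNA was sequenced at 0 h, 6 h, day 3, day 5, day 7 and day 10, with 2 libraries per time point from 2 independent experiments. Cells were seeded at 20000 per cm2. The growth factor BMP2 was given at 200 ng/ml over the first 3 days. The next 4 days had both BMP2 and rosiglitazone (2 µM), and the final 3 days had rosiglitazone without BMP2. Rosiglitazone activates PPARγ, the nuclear receptor that drives fat cell formation. All groups were the same line, with no stated genetic change other than the one marked by ΔECad in its name. The 0 h cells were those harvested at the start. Every later group differed from 0 h in treatment, culture age and density at once, so these cannot be told apart.

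The mitochondrial ribosome translates the messenger RNAs of the mitochondrial genome, which encode core subunits of the oxidative phosphorylation complexes. Its ribosomal RNAs come from mitochondrial DNA, while all of its proteins are encoded in the nucleus, made in the cytosol and imported. Some of these proteins have bacterial counterparts, and others were gained in mitochondria, where they cover or replace parts of the shortened ribosomal RNA. Fat cell formation is known for a growth of the mitochondrial compartment, which needs ribosomes of both compartments.

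Library totals lay between 12820802 and 17570366 counts, and replicate libraries correlated at 0.992 to 0.9946 (log2 scale). Levels are given as CPM (a gene's share of the library's counts) scaled by TMM factors, and fold changes are log2 values with their standard error (SE) from an edgeR fit of all 12 libraries. A gene was called at a Benjamini-Hochberg adjusted p below 0.05 over 12740 genes. The labelled change of cell type was visible in the 7 fat-cell markers, all called higher at day 10 against 0 h, with summed levels of 26752 and 25395 CPM at day 10 against 2.35 and 2.66 CPM at 0 h. The 4 markers of dividing cells were all called lower at day 10 and at day 3 against 0 h. Their summed levels were 36.2 and 45.5 CPM at day 10 and 66.2 and 43.2 CPM at day 3, against 2881 and 2821 CPM at 0 h. Summed levels of leukocyte, endothelial and muscle markers did not exceed 8.47 CPM in any library. The summed level of 5 epithelial markers was 964 and 906 CPM at day 10 and 150 and 103 CPM at day 3, against 849 and 838 CPM at 0 h. That of 7 mesenchymal markers was 2961 and 3299 CPM at day 10 and 10473 and 15176 CPM at day 3, against 9197 and 9569 CPM at 0 h. Both day 3 libraries were the highest and stood apart from each other, but most of each day 3 sum came from Fn1 (values below). The other mesenchymal markers together were lower in both day 3 libraries than at 0 h. In bulk RNA, fewer cells of a type and less RNA per cell cannot be told apart.

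The members shared a dip at day 3. The mean level was lowest at day 3 in 67 of the 76 tested members (88.2%), against 18.3% of all genes tested. The highest mean fell on day 7 in 26 members, on day 10 in 26, at 0 h in 10, at 6 h in 8, on day 5 in 6 and on day 3 in 0. Day 7 and day 10 thus held 34.2% of the members each, against 10.7% of all genes for day 7 and 26.4% for day 10. These times rest on TMM-scaled means, and the summed level is also given on the raw scale below. All 76 differed between some time points in the joint edgeR test, where the background was 94.7% of genes. Between the highest and the lowest mean, the ratio was 1.23 for Mrps17, a small-subunit protein with a bacterial counterpart, and 6.29 for Mrps6.

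The summed level of the 77 members was 3406 and 3344 CPM at 0 h, 3400 and 3282 CPM at 6 h, and 2331 and 2379 CPM at day 3. It was 4414 and 4042 CPM at day 5, 4639 and 4698 CPM at day 7, and 4523 and 4482 CPM at day 10. Both day 3 libraries lay below every other library, and all libraries from day 5 on lay above those of 0 h and 6 h. As a share of the raw counts, without scaling factors, the members took 0.264% and 0.275% at day 3 and 0.370% and 0.378% at day 10, against 0.362% and 0.356% at 0 h. The raw share was 0.458% and 0.420% at day 5 and 0.413% and 0.433% at day 7. On that scale both day 10 libraries thus lay below every day 5 and day 7 library. Without Mrps6, the member with the largest rise, the raw share was 0.250% and 0.263% at day 3 and 0.351% and 0.356% at day 10, against 0.356% and 0.349% at 0 h. The dip at day 3 was present on both scales, whereas on the raw scale the other members together overlapped between day 10 and 0 h.

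**Figure D1:**
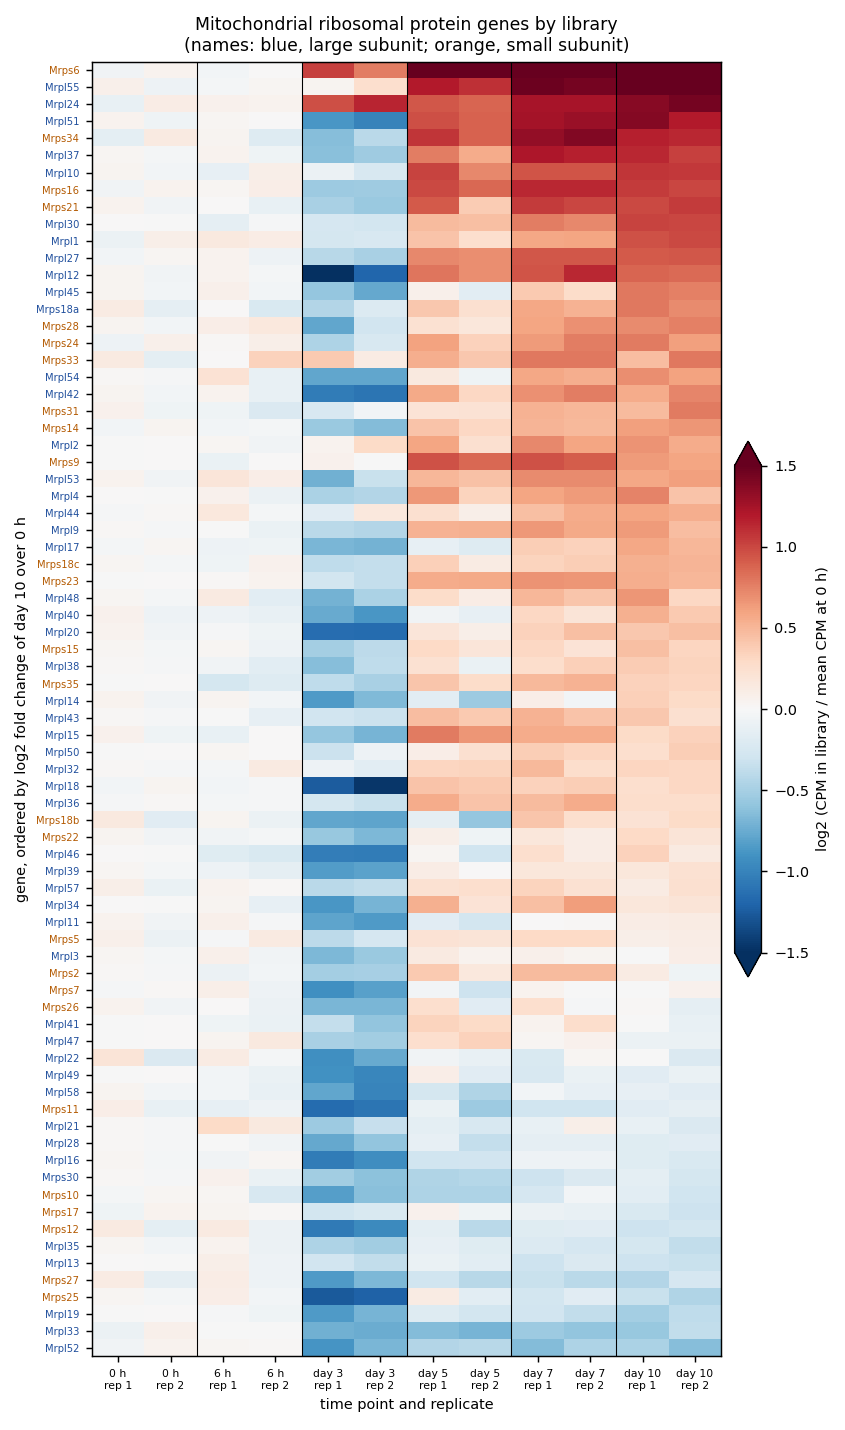
Level of each of the 76 tested members in each of the 12 libraries, as the log2 ratio of its CPM to its mean CPM at 0 h. Rows are ordered by the log2 fold change of day 10 over 0 h, columns by time point and replicate, and colours are capped at 1.5 in both directions; the 2 day 3 columns are blue for most genes, and Mrps6 and Mrpl24 are the red exceptions.

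Levels can be compared between members only per length, here as CPM per 1000 bases of the deposited gene length. On this scale the median of the large subunit genes was 35.6 and 34.8 at 0 h, 24.7 and 23.5 at day 3 and 48.9 and 48.3 at day 10. The median of the small subunit genes was 35.4 and 33.1 at 0 h, 22.6 and 23.3 at day 3 and 43.1 and 40.7 at day 10. Both subunits lay close together at 0 h and at day 3, and the large subunit lay above the small one in both day 10 libraries.

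The most abundant members at 0 h were Mrpl52, a mitochondria-specific protein of the large subunit, at 197 and 212 CPM per 1000 bases, and Mrpl33, a counterpart of bacterial L33, at 190 and 213. These overlapped. Below them came Mrpl20, an RNA-binding protein of the large subunit, at 168 and 156, Mrpl13 at 103 and 102, and Mrpl12 at 93.7 and 87.9, with no overlap between neighbours. The least abundant were Mrps36 at 0.308 and 0.173, Mrps33 at 2.58 and 2.12, Mrpl48 at 6.62 and 6.4, Mrps25 at 7.79 and 7.50, and Mrpl1 at 7.56 and 8.56, of which Mrps25 and Mrpl1 overlapped. This order depends on the deposited lengths: Mrpl1, for example, has 4188 bases and had 31.65 and 35.86 CPM at 0 h before division by length. Whether the lengths match the transcripts expressed in these cells was not tested. At day 10 the order had a new head: Mrps6 stood at 298 and 335, Mrpl20 at 215 and 222 and Mrpl12 at 166 and 164.

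At day 10 against 0 h, more members were higher than lower, by modest amounts. The test called 46 of 76 higher and 11 lower, where the background over all genes was 42.8% higher and 39.9% lower (82.7% in either direction). The median log2 fold change was 0.32 over the members and 0.06 over all genes tested. The members ranged between -0.55 and 2.05, and 10 exceeded a doubling (13.2%, against 27.3% of all genes) while 0 were below its inverse (against 23.5% of all genes). Large changes in either direction thus made up a smaller share of the members than of all genes. Of the 50 large-subunit genes 31 were higher and 7 lower, and of the 26 small-subunit genes 15 were higher and 4 lower. Of the 31 proteins gained in mitochondria 20 were higher and 4 lower, and of the 45 with a bacterial counterpart 26 were higher and 7 lower; the difference was not tested.

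This split depended on scaling. With library totals in place of TMM factors, 26 members were higher and 26 lower, and the median member stood at -0.03; the same change moved the median of all genes by -0.35. All 11 lower members were also called lower with library totals, and 26 of the 46 higher members were also called higher.

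**Figure D2:**
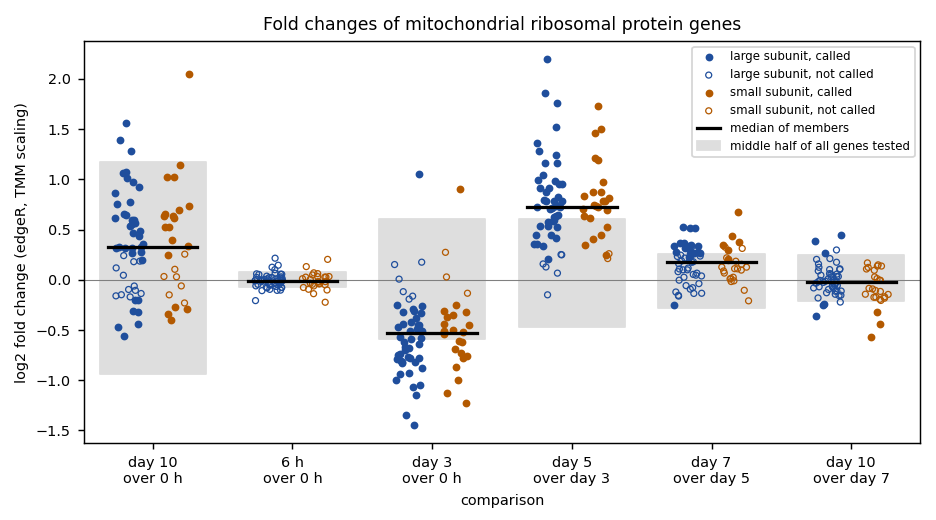
Log2 fold change of each tested member in 6 comparisons (TMM scaling), with large-subunit genes in blue and small-subunit genes in orange. Filled points were called at an adjusted p below 0.05, black lines are member medians and grey boxes span the middle quartiles of all 12740 genes; the median was -0.53 for day 3 over 0 h and 0.73 for day 5 over day 3.

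Mrps6, a small-subunit protein with a bacterial counterpart, had the largest rise. It had 232 and 261 CPM at day 10 against 57.4 and 61.9 CPM at 0 h. The groups did not overlap, and the log2 fold change was 2.05 (SE 0.09, edgeR adjusted p = 1.69e-12). It stood at 57.9 and 59.9 CPM at 6 h, 121 and 102 CPM at day 3, 375 and 366 CPM at day 5 and 346 and 387 CPM at day 7, so that its peak came at days 5 and 7. In the GENCODE annotation of GRCm38, Mrps6 shares 159 exon bases on the same strand with Slc5a3, the sodium-dependent inositol transporter, and 305 exon bases with the gene Gm49711; reads there cannot be assigned to 1 gene. Slc5a3 had 1270 and 1472 CPM at day 10 against 129 and 147 CPM at 0 h, and 2067 and 2628 CPM at day 5. Its part in the Mrps6 counts was not tested. The promoter of Mrps6 is shown because this gene leads the family at day 10. It lies at chr16:92058086-92058385 on the plus strand of GRCm38.p6, from 250 bases before to 50 after the RefSeq start, and holds none of the 5 motifs searched below.
Mrps6: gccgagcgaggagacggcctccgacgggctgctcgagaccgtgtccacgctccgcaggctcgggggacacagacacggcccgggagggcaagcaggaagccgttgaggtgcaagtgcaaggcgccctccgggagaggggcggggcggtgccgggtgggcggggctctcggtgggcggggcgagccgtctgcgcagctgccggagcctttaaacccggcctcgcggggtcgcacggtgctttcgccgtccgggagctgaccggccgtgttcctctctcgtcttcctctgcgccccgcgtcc

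Mrpl55, a large-subunit protein related to bacterial L31, had 41.1 and 42.7 CPM at day 10 against 14.98 and 13.5 CPM at 0 h, a log2 fold change of 1.56 (SE 0.11, edgeR adjusted p = 4.03e-10). It had 14.7 and 16.97 CPM at day 3 and was not called there (log2 fold change 0.15, SE 0.11). Mrpl24, which sits at the exit of the peptide tunnel, had 88.7 and 92.9 CPM at day 10 against 31.8 and 37.2 CPM at 0 h (log2 fold change 1.39, SE 0.09, edgeR adjusted p = 1.80e-10). Mrpl51, a mitochondria-specific protein of the large subunit, had 98.9 and 87.4 CPM at day 10 against 39.8 and 36.7 CPM at 0 h (1.28, SE 0.09). Mrps34, which in humans is needed for a stable small subunit, had 59.5 and 58.1 CPM at day 10 against 23.9 and 29.1 CPM at 0 h (1.15, SE 0.12). For none of these genes did the 2 groups overlap. Mrpl24 shares 594 exon bases with Rrnad1 on the opposite strand. Whether the counting used the strand is not given in the sources used here. Mrps34 shares 763 exon bases on the same strand with Nme3, a nucleoside diphosphate kinase gene that had 23.0 and 23.8 CPM at day 10 against 3.45 and 3.21 CPM at 0 h; its part in the Mrps34 counts was not tested. The other members above a doubling were Mrpl37 (1.08), Mrpl10 (1.07), Mrps16 (1.02), Mrps21 (1.02) and Mrpl30 (1.01).

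The falls at day 10 were smaller. Mrpl52 had 60.6 and 54.1 CPM at day 10 against 81.1 and 87.2 CPM at 0 h, a log2 fold change of -0.55 (SE 0.09, edgeR adjusted p = 2.70e-05). Mrpl33 had 63.3 and 72.5 CPM at day 10 against 88.6 and 99.5 CPM at 0 h (-0.47, SE 0.08, edgeR adjusted p = 5.09e-05). These were the members of highest level per length at 0 h, and neither overlapped between the groups. Mrpl19, an RNA-binding protein of the large subunit, had 34.6 and 37.8 CPM at day 10 against 49.1 CPM in both 0 h libraries (-0.44, SE 0.09). Mrpl19 shares 1962 exon bases with Gcfc2 on the opposite strand, where the same limit on strand holds. Mrps25 and Mrps27, both mitochondria-specific proteins of the small subunit, fell by 0.40 and 0.34 on the log2 scale. Mrps27 (adjusted p = 0.0137) was not called when 0 h replicate 1 or day 10 replicate 1 was left out. Mrps12, in the decoding centre of the small subunit (-0.29), and Mrps30, which despite its name sits in the large subunit (-0.21), also lost their call without single libraries of either group. The count of lower members was 7 without 0 h replicate 1 and 7 without day 10 replicate 2, in place of 11.

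The promoters of Mrpl52 and Mrpl33 are shown because these abundant members stayed below their 0 h level at every time point from day 3 on. They are also shown because both hold an ETS-type motif at the RefSeq start of transcription. The motif is not particular to members that fell. The windows of Mrpl51 and Mrpl27 also hold it, and these rose by 1.28 and 0.93 on the log2 scale at day 10 against 0 h. They lie at chr14:54426659-54426958 and chr5:31613701-31614000, both on the plus strand of GRCm38.p6. Capitals mark the letters CCGGAAGT or their reverse complement, at position 2 after the start in Mrpl52 and at -3 in Mrpl33.
Mrpl52: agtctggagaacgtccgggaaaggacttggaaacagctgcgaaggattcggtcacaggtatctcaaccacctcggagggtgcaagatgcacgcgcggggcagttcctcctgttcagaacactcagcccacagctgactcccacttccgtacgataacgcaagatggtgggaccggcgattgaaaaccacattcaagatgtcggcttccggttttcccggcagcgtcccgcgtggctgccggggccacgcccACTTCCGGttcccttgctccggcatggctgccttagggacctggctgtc
Mrpl33: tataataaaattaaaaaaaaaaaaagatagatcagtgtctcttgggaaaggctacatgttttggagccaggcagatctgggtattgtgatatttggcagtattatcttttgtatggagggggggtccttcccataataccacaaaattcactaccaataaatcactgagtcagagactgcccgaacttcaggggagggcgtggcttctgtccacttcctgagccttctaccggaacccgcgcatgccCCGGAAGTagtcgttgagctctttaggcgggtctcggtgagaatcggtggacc

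At 6 h of BMP2, no change of any member was called. The test called 0 members higher and 0 lower, where the background was 0.534% and 0.212% of all genes, and DESeq2 also called 0. At an unadjusted p under 0.05, which 5.91% of all genes passed, there was 1 member, Mrps35, a mitochondria-specific protein of the small subunit, with 33.8 and 35.4 CPM at 6 h against 40.1 and 40.7 CPM at 0 h. Its log2 fold change was -0.22 (SE 0.09, edgeR adjusted p = 0.557). The median member stood at -0.01 and the members ranged between -0.22 and 0.22.

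At day 3 of BMP2, most of the family was lower than at 0 h. The test called 65 of 76 members lower and 2 higher, where the background was 35.0% lower and 33.1% higher. The median log2 fold change was -0.53 over the members and 0.00 over all genes tested, and 8 members fell by a factor of more than 2 (10.5%, against 13.3% of all genes). With library totals 58 members were called lower, all among the 65, and 3 higher. Both subunits were involved: 43 of 50 large-subunit genes and 22 of 26 small-subunit genes were called lower, with 1 called higher in each. Counts of lower members stayed between 59 and 65 when each library was left out in turn.

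The stalk recruits the GTP-driven translation factors to the ribosome. Its tip protein Mrpl12 had the largest fall, with 25.6 and 37.6 CPM at day 3 against 88.9 and 83.4 CPM at 0 h, and a log2 fold change of -1.45 (SE 0.13, edgeR adjusted p = 7.81e-07). Mrpl11, at the stalk base, had 36.5 and 35.0 CPM at day 3 against 65.3 and 60.6 CPM at 0 h (-0.82, SE 0.08). Mrpl10, which anchors Mrpl12, had 41.2 and 37.2 CPM at day 3 against 45.2 and 42.6 CPM at 0 h and was not called (-0.16, SE 0.10, edgeR adjusted p = 0.176).

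In the central protuberance, the crown of the large subunit that faces the small one, 7 of 8 members were called lower and 0 higher at day 3. This share of 87.5% was near the 85.5% of all tested members called lower. Mrpl18 had 26.6 and 22.8 CPM at day 3 against 61.4 and 64.5 CPM at 0 h (-1.35, SE 0.09, edgeR adjusted p = 4.68e-10). Mrpl46 had 12.6 and 12.5 CPM at day 3 against 26.0 and 25.7 CPM at 0 h (-1.04, SE 0.12). Mrpl58, a peptidyl-tRNA hydrolase that frees stalled ribosomes, had 19.8 and 17.04 CPM at day 3 against 34.8 and 33.0 CPM at 0 h (-0.88, SE 0.10). The member of this group that was not called was Mrpl55. At the tunnel exit, 4 of 5 tested members were lower (80.0%, also near the share of all members) and 1, Mrpl24, was higher. Elsewhere in the large subunit, Mrpl20 had 48.9 and 48.3 CPM at day 3 against 111 and 104 CPM at 0 h (-1.15, SE 0.07).

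In the small subunit the largest fall was that of Mrps25, with 19.4 and 20.1 CPM at day 3 against 47.2 and 45.5 CPM at 0 h (-1.23, SE 0.11, edgeR adjusted p = 2.96e-08). Mrps25 overlaps 4590 exon bases of Nr2c2, a nuclear receptor gene on the opposite strand, which had 98.6 and 101 CPM at day 3 against 75.4 and 74.8 CPM at 0 h. The library kit keeps the strand, but whether the counting used it is not given in the sources used here. Mrps11, of the small-subunit platform, had 15.7 and 16.2 CPM at day 3 against 37.5 and 32.3 CPM at 0 h (-1.12, SE 0.13). Mrps12 had 14.9 and 16.1 CPM at day 3 against 34.0 and 28.0 CPM at 0 h (-1.001, SE 0.13). None of these groups overlapped.

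Against this trend, Mrpl24 had 67.2 and 75.9 CPM at day 3 against 31.8 and 37.2 CPM at 0 h, a log2 fold change of 1.05 (SE 0.09, edgeR adjusted p = 1.94e-08). The exon overlap of Mrpl24 with Rrnad1 given above holds here too, and its part was not tested. Mrps6 had 121 and 102 CPM at day 3 against 57.4 and 61.9 CPM at 0 h (0.90, SE 0.09, edgeR adjusted p = 1.94e-07). The 9 members not called at day 3 ranged between -0.19 (Mrpl50) and 0.27 (Mrps33), and the others were Mrpl10, Mrps31, Mrpl32, Mrpl44, Mrps9, Mrpl55 and Mrpl2. At day 3 against 0 h, all 4 markers of dividing cells were called lower. Of the 5 epithelial markers 3 were lower and 1 higher, and of the 7 mesenchymal markers 2 were lower and 3 higher. At day 5 against day 3, 3 epithelial markers were higher and 1 lower, and 2 mesenchymal markers were higher and 4 lower. Krt14, a keratin of basal epithelium, had 536 and 448 CPM at day 5, against 28.8 and 15.5 CPM at day 3. Epcam, a surface protein of epithelial cells, had 0 counts in both 0 h libraries and 4 in each day 3 library. Over the 5 epithelial markers, the median log2 fold change of day 3 over 0 h was -1.82, with a range between -3.35 and 5.02. Fn1, the matrix protein fibronectin, had 6988 and 12600 CPM at day 3, against 1339 and 1953 CPM at 0 h. The part of these marker changes in the dip and the recovery of the members was not tested.

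**Figure D3:**
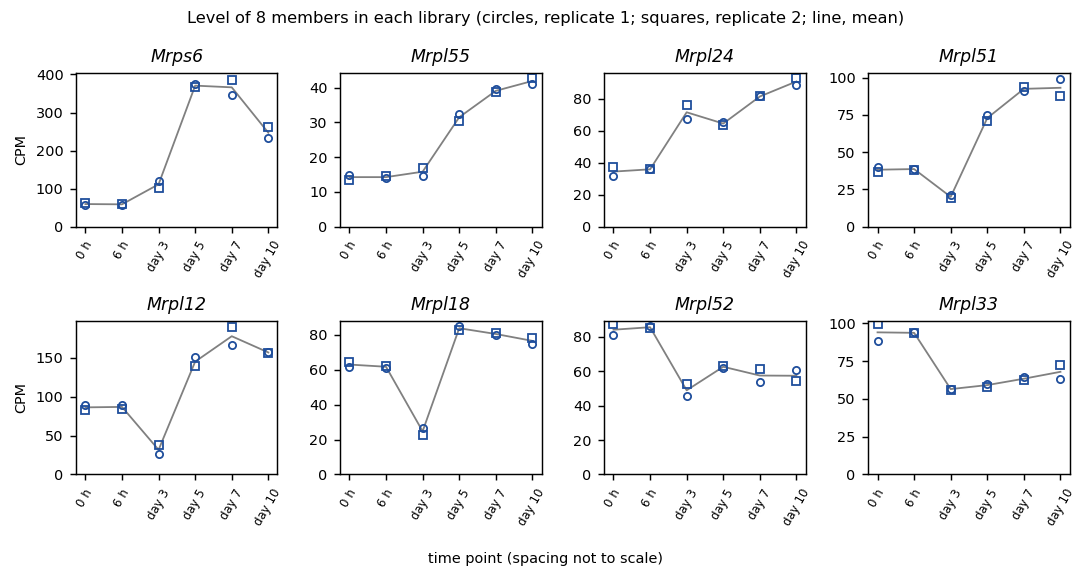
CPM of 8 members in each library over the 6 time points (circles, replicate 1; squares, replicate 2; lines, means; vertical axes start at 0). Mrpl12 and Mrpl18 show the dip at day 3, Mrpl24 is already high at day 3, and Mrpl52 and Mrpl33 remain below 0 h through day 10.

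Between day 3 and day 5, when rosiglitazone had been added to BMP2, nearly the whole family was higher. The test called 68 of 76 members higher at day 5 against day 3 and 0 lower, where the background was 34.0% higher and 31.0% lower. The lower count was also 0 at an unadjusted p under 0.05 and with DESeq2, and it was 1 with library totals, with upper-quartile factors or without day 3 replicate 1. The median log2 fold change was 0.73 over the members and 0.01 over all genes tested, and 15 members rose by a factor of more than 2 (19.7%, against 15.7% of all genes).

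Mrpl12 had 151 and 139 CPM at day 5 against 25.6 and 37.6 CPM at day 3, a log2 fold change of 2.20 (SE 0.13, edgeR adjusted p = 1.34e-08). Mrpl51 had 75.02 and 70.7 CPM at day 5 against 21.0 and 19.1 CPM at day 3 (1.86, SE 0.09). Mrpl18 had 84.9 and 82.7 CPM at day 5 against 26.6 and 22.8 CPM at day 3 (1.76, SE 0.08). Each of these was then above its level at 0 h as well, with log2 fold changes of day 5 over 0 h of 0.75, 0.93 and 0.41. Mrps6 rose by 1.73 and Mrpl42, a mitochondria-specific large-subunit protein, by 1.52 on the log2 scale. Mrpl33 was not called (0.07, SE 0.08), with 60.2 and 58.1 CPM at day 5 against 56.8 and 56.1 CPM at day 3. The other members not called were Mrpl24, Mrps30, Mrpl44, Mrps33, Mrpl2, Mrpl21 and Mrps10, with log2 fold changes between -0.15 and 0.26. At day 5 against 0 h, 36 members were higher and 14 lower (background 40.3% and 37.6%), and the median stood at 0.21.

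Between day 5 and day 7 the change was small. The test called 23 members higher at day 7 against day 5 and 1 lower, where the background was 19.0% higher and 18.8% lower. The median was 0.18 over the members and -0.01 over all genes. With library totals 4 were higher and 12 lower, and the median member stood at -0.02. The count of higher members was also 7 without day 5 replicate 2, 10 without day 7 replicate 1 and 10 without day 7 replicate 2, so single libraries decided much of it. Mrps18b had 36.9 and 33.0 CPM at day 7 against 25.1 and 18.6 CPM at day 5 (0.68, SE 0.13, edgeR adjusted p = 0.000837). Mrpl37, a mitochondria-specific protein of the large subunit, had 104 and 101 CPM at day 7 against 76.4 and 66.2 CPM at day 5 (0.52, SE 0.08). Mrpl17, near the tunnel exit, had 83.1 and 82.0 CPM at day 7 against 59.2 and 56.1 CPM at day 5 (0.52, SE 0.07). Mrpl47, also near the tunnel exit, had 24.4 and 24.9 CPM at day 7 against 28.3 and 30.2 CPM at day 5 (-0.25, SE 0.09, edgeR adjusted p = 0.0482), and its call was lost in most alternatives. At day 7 against 0 h, 48 members were higher and 8 lower (background 41.7% and 39.4%).

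After BMP2 was withdrawn, few members changed. At day 10 against day 7, 3 were higher and 6 lower, where the background was 15.1% and 13.2% of genes. With library totals 2 were higher and 18 lower. Mrps6 had 232 and 261 CPM at day 10 against 346 and 387 CPM at day 7 (-0.57, SE 0.09, edgeR adjusted p = 0.000127). Slc5a3 moved in the same direction, with 1270 and 1472 CPM at day 10 against 1808 and 1988 CPM at day 7. Mrps2, a counterpart of bacterial S2, had 59.5 and 52.4 CPM at day 10 against 75.8 and 75.9 CPM at day 7 (-0.44, SE 0.09). Mrps9, a counterpart of bacterial S9, had 70.1 and 67.9 CPM at day 10 against 87.6 and 84.8 CPM at day 7 (-0.32, SE 0.08). The other lower members were Mrpl34 (-0.36), Mrpl36 (-0.25) and Mrpl15 (-0.24); leaving out day 7 replicate 2, day 10 replicate 1 or day 10 replicate 2 left 3 lower members. Mrpl45, which binds the ribosome to the inner membrane, had 106 and 103 CPM at day 10 against 80.0 and 73.8 CPM at day 7 (0.44, SE 0.09, edgeR adjusted p = 0.00157). Mrpl1, of the mobile stalk by the tRNA exit, rose by 0.38 and Mrpl30 by 0.27.

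The Mrps18 genes are 3 paralogs whose products take different places: Mrps18c replaces bacterial S18, Mrps18b sits elsewhere in the small subunit, and Mrps18a sits in the large subunit. Mrps18a had 54.5 and 51.5 CPM at day 10 against 34.2 and 28.5 CPM at 0 h (0.76, SE 0.11, edgeR adjusted p = 1.07e-05). Mrps18c had 32.8 and 32.3 CPM at day 10 against 23.1 and 22.1 CPM at 0 h (0.53, SE 0.10, edgeR adjusted p = 0.000197), a call lost with library totals. Mrps18b had 32.1 and 33.7 CPM at day 10 against 30.6 and 24.7 CPM at 0 h and was not called (0.26, SE 0.14, edgeR adjusted p = 0.0911). At day 3 against 0 h the log2 fold changes were -0.32 (SE 0.12) for Mrps18a, -0.78 (SE 0.14) for Mrps18b and -0.37 (SE 0.11) for Mrps18c, all called. The call of Mrps18a at day 3 was lost with library totals and without 0 h replicate 1 or day 3 replicate 1. The differences between the paralogs were not tested.

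The members lie on 17 chromosomes, with 11 of them on chromosome 11. Many share their start region with a neighbour on the other strand. In the GENCODE annotation, 33 of 78 candidates (42.3%) had a head-to-head neighbour, a protein-coding gene on the opposite strand whose start lay within 1000 bases of their own, against 2136 of 14916 protein-coding genes in the table (14.3%). One pair consists of 2 members, Mrps11 and Mrpl46, and both fell at day 3, as given above. They share 173 exon bases on opposite strands, and since the strand setting of the counting is unknown, reads there may have been counted for both. Their promoters are shown because the windows overlap and both genes fell at day 3. Mrps11 is read from the plus strand at chr7:78782881-78783180 and Mrpl46 from the minus strand at chr7:78783040-78783339 (GRCm38.p6). Capitals mark CGCCATCTT, the reverse complement of the YY1 motif, at -108 in Mrps11.
Mrps11: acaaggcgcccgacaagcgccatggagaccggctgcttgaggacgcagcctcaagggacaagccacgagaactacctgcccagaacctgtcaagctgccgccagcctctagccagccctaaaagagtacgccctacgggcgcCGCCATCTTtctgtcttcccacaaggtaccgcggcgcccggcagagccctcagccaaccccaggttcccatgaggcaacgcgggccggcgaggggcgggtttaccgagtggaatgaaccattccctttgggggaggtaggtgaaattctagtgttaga
Mrpl46: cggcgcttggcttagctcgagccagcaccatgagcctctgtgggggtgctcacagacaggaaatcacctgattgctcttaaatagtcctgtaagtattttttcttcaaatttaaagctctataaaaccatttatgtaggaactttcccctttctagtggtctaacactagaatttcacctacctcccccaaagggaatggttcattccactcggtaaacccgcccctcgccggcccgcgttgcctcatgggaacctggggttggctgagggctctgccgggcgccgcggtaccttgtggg

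The neighbours described next were picked after their values were seen. Mrps12 faces Sars2, the mitochondrial seryl-tRNA synthetase, which had 6.35 and 6.12 CPM at day 3 against 13.1 and 11.6 CPM at 0 h (-0.98, SE 0.14), close to the -1.001 of Mrps12. Mrpl18 faces Tcp1, a subunit of the cytosolic chaperonin, and shares 141 exon bases with it on opposite strands, where the same limit holds. Tcp1 had 421 and 398 CPM at day 3 against 930 and 883 CPM at 0 h (-1.15, SE 0.07). At day 5 against day 3, Mrpl18 rose by 1.76, whereas Tcp1 was not called (-0.05, SE 0.07). Other neighbours differed widely in size: Eme1, a DNA repair endonuclease gene facing Mrpl27, stood at -7.96 at day 3 against -0.45 for Mrpl27, and Ska3, a kinetochore gene facing Mrpl57, stood at -6.27 against -0.38 for Mrpl57. Mrpl51 faces Ncapd2, a condensin gene, with -0.93 for Mrpl51 and -3.54 for Ncapd2. The promoter of Mrpl18 is shown because this gene left its neighbour at day 5. It lies at chr17:12916042-12916341 on the minus strand of GRCm38.p6, and capitals mark an ETS-type CCGGAAGT at -240 from the RefSeq start. In the GENCODE annotation used for the neighbours, Mrpl18 starts at 12916345, so there the motif lies inside the gene.
Mrpl18: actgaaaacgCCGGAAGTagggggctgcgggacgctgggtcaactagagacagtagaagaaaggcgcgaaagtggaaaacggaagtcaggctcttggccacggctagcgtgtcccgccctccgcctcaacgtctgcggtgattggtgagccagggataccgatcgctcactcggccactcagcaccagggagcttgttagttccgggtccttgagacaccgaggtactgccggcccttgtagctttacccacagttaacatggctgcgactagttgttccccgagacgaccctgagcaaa

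**Figure D4:**
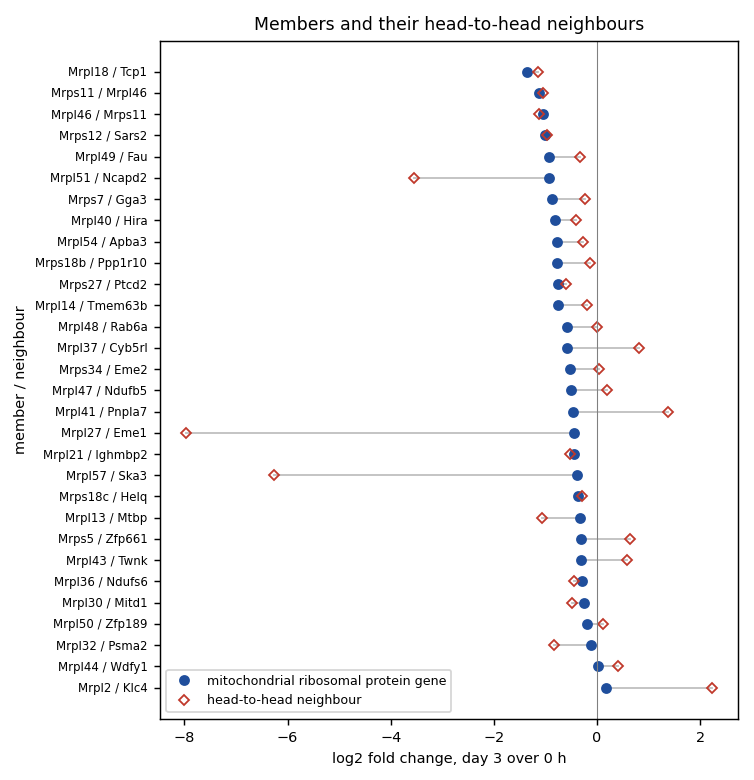
Log2 fold change of day 3 over 0 h for members (filled blue circles) and for the neighbour that starts on the opposite strand within 1000 bases (open red diamonds), for the pairs in which both genes were tested. Mrps11 with Mrpl46 and Mrps12 with Sars2 lie close together, while Eme1, Ska3 and Ncapd2 lie far below their member.

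Motifs were searched on both strands of the 300-base windows from RefSeq (GRCm38.p6), which matched 68 of the 77 members and 10038 tested genes. The ETS-type motif CCGGAAGT, bound by factors such as GABPA, was found in 12 members (17.6%) and in 9.3% of tested genes. The YY1 motif AAGATGGCG was found in 8 members (11.8%) and in 3.5% of tested genes. The NRF1 motif GCGCATGCG was found in 7 members (10.3%), among them Mrpl10, Mrpl17 and Mrps18b, and in 4.1% of tested genes. The YY1 and NRF1 motifs were first searched in longer forms of 10 letters and were shortened to 9 after that result had been seen. The longer forms were found in 5 members (7.4%) against 2.4% of tested genes for YY1, and in 3 members (4.4%) against 2.4% of tested genes for NRF1. The E-box CACGTG, bound by Myc among others, was found in 5 members (7.4%) and in 11.7% of tested genes. The ERR motif TCAAGGTCA was found in 0 members and in 0.3% of tested genes. Apart from the longer forms, no motif contains another, and a match is a description of the letters in the window. Median GC content of the windows was 58.0% in members and 60.8% in tested genes.

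The other genes of the pathway were counted in lists made for this purpose. Mitoribosome proteins with other symbols behaved in 2 ways. Dap3, a small-subunit GTP-binding protein, had 106 and 111 CPM at day 10 against 74.3 and 75.4 CPM at 0 h (0.54, SE 0.07). Gadd45gip1, a large-subunit protein also known as a regulator of the cell cycle, had 26.1 and 27.0 CPM at day 10 against 56.5 and 47.4 CPM at 0 h (-0.97, SE 0.10). Of 5 such genes, 3 were higher and 2 lower at day 10 against 0 h, 0 were higher and 4 lower at day 3 against 0 h, and 4 were higher and 0 lower at day 5 against day 3. These and the next counts stand against the shares of all genes: 42.8% higher and 39.9% lower at day 10 against 0 h, 33.1% and 35.0% at day 3 against 0 h, and 34.0% and 31.0% at day 5 against day 3.

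Of 15 tested mitochondrial translation factors, 11 were higher and 0 lower at day 10 against 0 h, 1 was higher and 5 lower at day 3 against 0 h, and 12 were higher and 0 lower at day 5 against day 3. Tufm, the elongation factor that brings charged tRNA to the ribosome, had 4.76 and 4.60 CPM at day 3 against 13.7 and 11.3 CPM at 0 h (-1.41, SE 0.16, edgeR adjusted p = 8.23e-07). It had 17.7 and 15.4 CPM at day 5 against 4.76 and 4.60 CPM at day 3 (1.82, SE 0.16). Of 30 genes for mitoribosome assembly and rRNA modification, 17 (56.7%) were higher and 5 (16.7%) lower at day 10 against 0 h. At day 3 against 0 h, 8 (26.7%) were higher and 9 (30.0%) lower, near the shares of all genes. Noa1, a GTPase of small-subunit assembly, stood at -1.75 at day 10, and Trmt2b, a methyltransferase for mitochondrial tRNA and rRNA, at 2.04.

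Of 20 mitochondrial aminoacyl-tRNA synthetase and related genes, 9 (45.0%) were higher and 2 (10.0%) lower at day 10 against 0 h, and 4 were higher and 8 lower at day 3 against 0 h. Of 20 genes for transcription and RNA maintenance of mitochondrial DNA, 8 (40.0%) were higher and 7 (35.0%) lower at day 10 against 0 h, near the shares of all genes. Tfam, which packages and transcribes mitochondrial DNA, had 58.2 and 62.5 CPM at day 10 against 63.0 and 62.3 CPM at 0 h and was not called (-0.05, SE 0.08). Polrmt, the mitochondrial RNA polymerase, had 23.7 and 23.8 CPM at day 10 against 31.65 CPM in both 0 h libraries (-0.41, SE 0.10).

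Of 13 regulators of nuclear genes for mitochondria, 4 (30.8%) were higher and 7 (53.8%) lower at day 10 against 0 h; all genes also changed in both directions. Ppargc1a, a coactivator of mitochondrial biogenesis, had 32.7 and 32.9 CPM at day 10 against 0.441 and 0.742 CPM at 0 h (5.74, SE 0.22), and at day 3 it already had 7.05 and 5.66 CPM. Esrra, a nuclear receptor that works with it, had 99.5 and 91.7 CPM at day 10 against 24.0 and 23.8 CPM at 0 h (2.00, SE 0.10). Myc, an activator of growth and ribosome genes, had 11.8 and 9.65 CPM at day 10 against 89.9 and 86.0 CPM at 0 h (-3.04, SE 0.18). At day 3, Myc had 99.5 and 150 CPM against 89.9 and 86.0 CPM at 0 h. Nrf1 had 23.3 and 21.1 CPM at day 10 against 60.5 and 59.8 CPM at 0 h (-1.44, SE 0.09). Gabpa, an ETS factor, was not called at day 10 against 0 h (0.04, SE 0.07). The part of these regulators in the changes of the members was not tested.

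The members can be set beside the cytosolic ribosome and the respiratory complexes. At day 3 against 0 h, 26 of 76 cytosolic ribosomal protein genes were higher (34.2%, near the 33.1% of all genes) and 10 lower (13.2%, against 35.0%), with a median of 0.11, while the 76 members had a median of -0.53. At day 10 against 0 h, 0 of the 76 cytosolic genes were higher and 69 lower, with a median of -1.18 against 0.32 for the members. Of 80 tested nuclear oxidative phosphorylation genes, 78 were higher and 0 lower at day 10 against 0 h, with a median of 1.75. At day 3 against 0 h, 9 of these were higher and 47 lower, with a median of -0.29, and at day 5 against day 3, 77 were higher and 1 lower. The difference between the families was not tested.

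**Figure D5:**
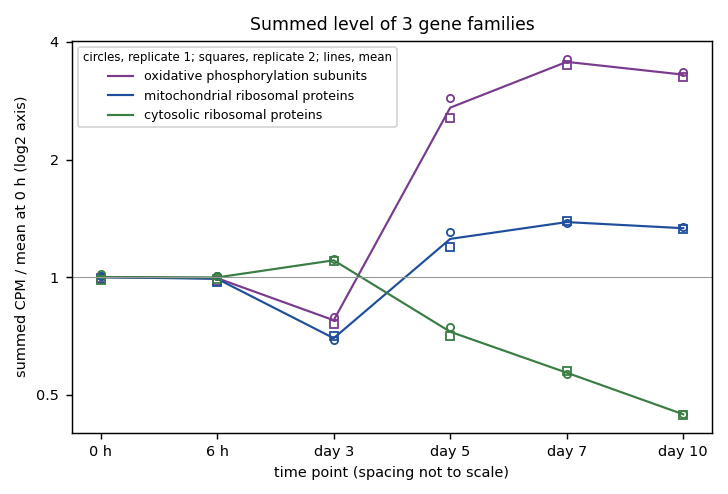
Summed CPM of 3 gene families in each library, divided by the family's mean at 0 h, on a log2 axis over the 6 time points. Mitochondrial ribosomal proteins and oxidative phosphorylation subunits both lie below 1 at day 3 and above 1 from day 5 on, while cytosolic ribosomal proteins lie above 1 at day 3 and below 1 from day 5 on.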

How the data were processed

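RNA was measured in 12 libraries from 2 independent experiments. Per the labels' protocols, a strand-keeping kit for total RNA was used with an input of 200 ng. The labels also call the sequenced RNA poly-A+. The values deposited by the authors are raw counts per gene. The submitters' processing notes name the aligner STAR and the build mm10. Neither STAR's version nor the annotation, the counting tool or its strand setting is given in the sources used here. In the GENCODE annotation, exons of 33 members overlapped those of another gene, and exons of 23 members overlapped those of a protein-coding gene. Only some of these overlaps are named above. Of 17090 Entrez identifiers, 17045 matched a symbol in a RefSeq annotation of GRCm38.p6.

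Counts were fitted in edgeR 4.0.16 (R 4.3.3) with 1 mean for each time point, using every library (6 residual degrees of freedom), TMM factors, filterByExpr (minimum count 10, minimum total 15), robust quasi-likelihood F tests, Benjamini-Hochberg adjustment over 12740 genes and a prior count of 0.125. P-values measure the spread between the libraries of a time point, pooled over all 6. Levels are CPM, and per-length levels use the deposited gene length. Examples in each comparison were up to 5 called members per direction, ranked by fold change among those without overlap, plus key members; any member could be named with its values. Members, lists and alternatives were chosen with earlier results of these data known. The main fit did not pair libraries by replicate number. Deviations of same-numbered libraries correlated at -0.091 to 0.193 over 15 pairs of time points, and 1 pair exceeded 0.1. Such low values do not settle whether same-numbered libraries came from the same experiment. Alternatives were other scaling and filters, a replicate block, DESeq2 1.42.0, fitting the 4 libraries compared, a prior count of 1, leaving out single libraries and, added after the data were seen, the length of 2 promoter motifs.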

Additional observations from a re-analysis of the deposited data

How the results depend on the processing

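Library totals in place of TMM factors moved the median of all genes by -0.35 for day 10 over 0 h, 0.10 for day 3 over 0 h, -0.14 for day 5 over day 3, -0.20 for day 7 over day 5 and -0.12 for day 10 over day 7. With them, 26 members were higher and 26 lower at day 10 against 0 h (median -0.0315), 4 higher and 12 lower at day 7 against day 5 (median -0.01997), 18 lower at day 10 against day 7 and 1 lower at day 5 against day 3. Upper-quartile factors gave 15 higher and 2 lower at day 7 against day 5 and 1 lower at day 5 against day 3. The single lower member at day 7 against day 5 was lost (count 0) with median-of-ratios factors, no filter, DESeq2 or only the 4 libraries compared. Leaving out each library in turn gave 7 to 12 lower at day 10 against 0 h, 0 to 1 lower at day 5 against day 3, 7 to 28 higher and 0 to 2 lower at day 7 against day 5, and 3 to 6 lower at day 10 against day 7. The median at 6 h against 0 h lay between -0.0471 and 0.0233. The cause of these changes was not tested.

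Of 62 results for named members, 8 lost their call with library totals, 6 with DESeq2 and 13 without at least 1 library, and 0 changed direction. The main fit did not use the library numbers as pairs. With a replicate block, 48 members were higher and 11 lower at day 10 against 0 h, and 65 were lower at day 3 against 0 h. With the same block, 68 were higher at day 5 against day 3, and 23 were higher and 0 lower at day 7 against day 5. With 2 libraries per time point, small changes such as those after day 5 were not firmly separable from the spread.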
